A study of Mus musculus with 12 samples.

Results

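A set of 9 liver genes that respond to, sense or regenerate glucocorticoid hormone, or bind and import zinc, was followed in 12 livers of normal and tumour-bearing mice. They were Mt1, Mt2, Slc39a14, Tsc22d3, Fkbp5, Sgk1, Tat, Nr3c1 and Hsd11b1, taken by gene symbol: 9 of the 22557 genes of the deposited table. The study collected whole livers, with all of their cells, from female, age-matched mice of 2 genotypes, wild type (WT) or Mtdh KO, a knockout of the gene for metadherin. Each genotype was taken either normal, with no tumor, or bearing a Py8119 allograft mammary tumor, grown from a mouse mammary cancer cell line. This made 4 groups of 3 different mice: WT without a tumour, WT with a tumour, KO without a tumour and KO with a tumour. The labels give neither the age, the strain, the allele of Mtdh, the time after grafting, the tumour size nor the time of day of collection. Each value is a read number scaled by its library's size factor and is written below as normalised signal.

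Glucocorticoids are adrenal hormones that enter hepatocytes, bind the glucocorticoid receptor and turn on genes of amino acid breakdown, glucose production and feedback control. In the liver, an enzyme of the endoplasmic reticulum regenerates active hormone from its inert form, so that the hepatocyte sees more of it than the blood level alone gives. Metallothioneins are small cysteine-rich proteins that hold zinc and copper in the cell; their genes respond to metals, to glucocorticoids and to inflammatory cytokines, and the liver also imports zinc during the acute phase response.

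Estimated depth was 12700000 reads in KO with a tumour replicate 1 and between 25700000 and 43000000 reads in the other 11 libraries. KO with a tumour replicate 1 had 14899 genes above 0, against 17772 to 20365 elsewhere. KO without a tumour replicate 3 held 5.32% of its signal in small nuclear RNA and 4.84% in small nucleolar RNA, against at most 2.05% and 1.23% in the others. Mtdh itself lay between 323 and 1063 in the KO libraries and between 3954 and 5702 in the WT libraries. Many, but not all, results of members that rest on those 2 libraries are given with and without them. In these bulk samples, fewer cells of a type and less RNA per cell cannot be told apart.

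Each of the 9 members was above the minimum level for testing, and the lowest value of any of them in any library was 76.7. In the limma fit, none of the 9 passed a Benjamini-Hochberg adjusted p of 0.05 in any of 7 comparisons. Over all 17380 genes tested, the share past the threshold was 0.679% (0.432% higher, 0.247% lower) for tumour against none in WT and 1.06% (0.616% higher, 0.449% lower) for the tumour effect averaged over genotypes. It was 0% for tumour against none in KO. The share was 0.00575% for KO against WT without a tumour, 0.023% for KO against WT with a tumour, 0.0115% for KO against WT averaged and 0% for the interaction. At an unadjusted p under 0.05 the tumour effect took 3 of 9 members in WT, 1 in KO and 5 averaged, where it took 8.67%, 12.7% and 15.1% of all genes. The genotype effect took 1 without a tumour, 4 with a tumour and 2 averaged (1.93%, 14.4% and 10.3% of all genes), and the interaction took 1 (4.7%). When each library was weighted by its fit to its group, 4 members passed for tumour against none in WT and 3 for tumour against none averaged. For KO against WT, 3 passed with a tumour and 1 averaged. Over all genes, that weighted fit called 510, 856, 1664 and 139 of 17380, in the same order.

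**Figure D1:**
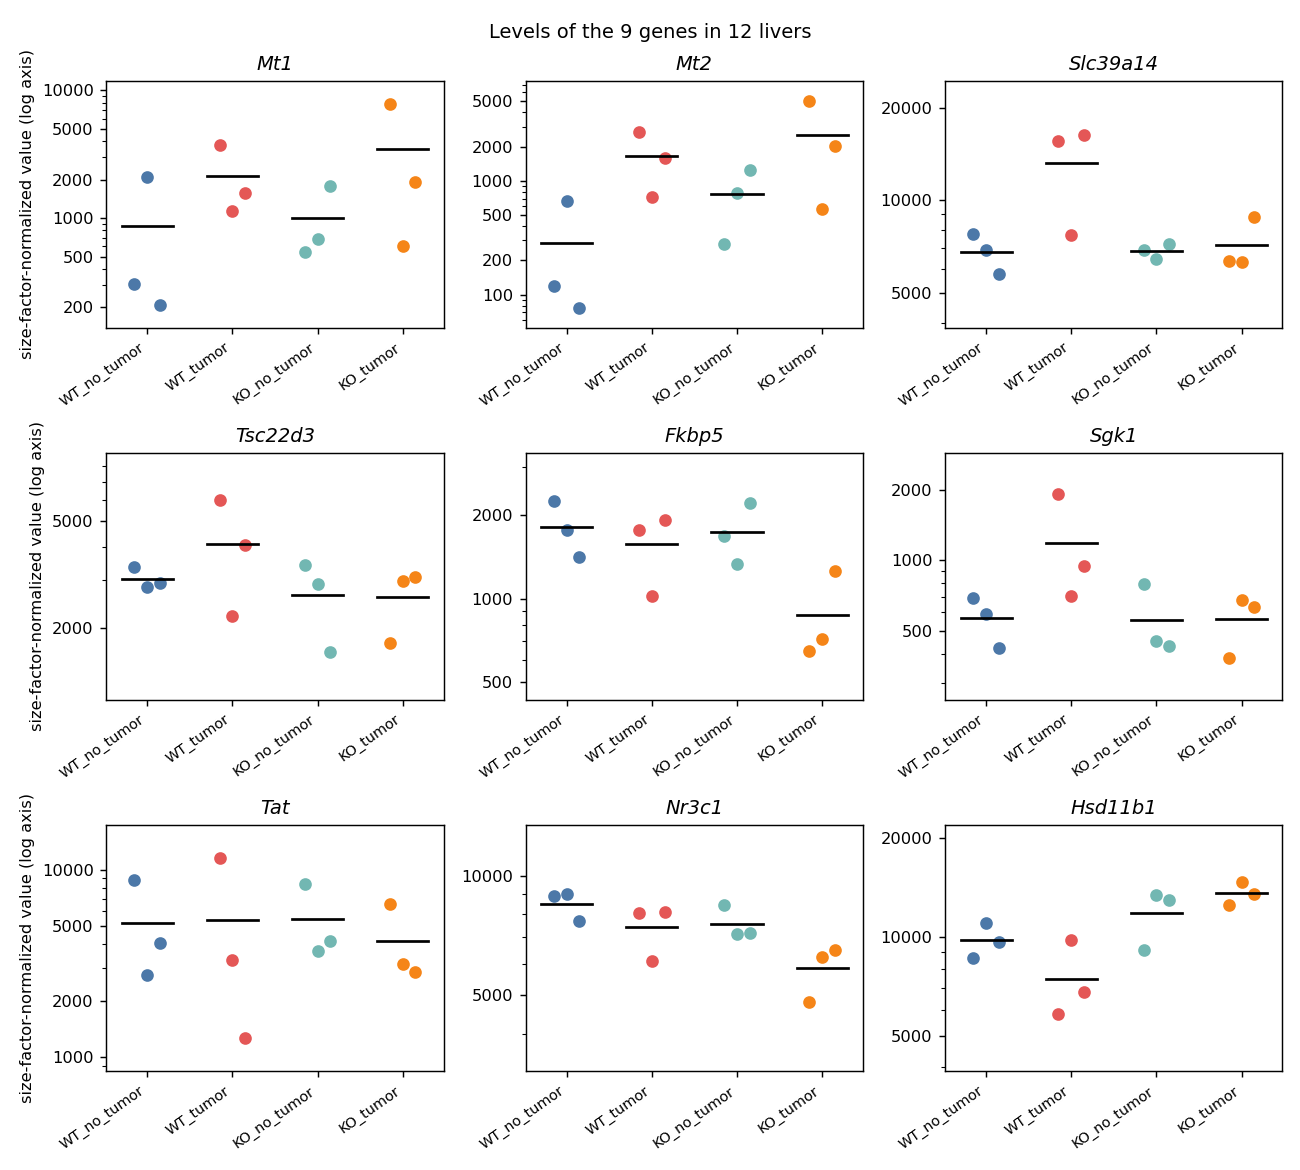
Normalised signal of the 9 genes (log axis) in each of the 12 libraries, by group, with a bar at the arithmetic group mean. Mt1, Mt2 and Tat spread widely within groups, whereas Nr3c1 and Hsd11b1 stay close to their group means.

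The 2 metallothioneins varied more between mice of a group than most genes, and the order of their group means rested on single livers. Mt1 (ENSMUSG00000031765, mm39 chromosome 8, 94905710 to 94906955, plus strand) encodes metallothionein 1. Its normalised signal was 307, 2107 and 208 in WT without a tumour, 3737, 1144 and 1558 in WT with a tumour, 541, 687 and 1788 in KO without a tumour, and 7861, 602 and 1916 in KO with a tumour. A single mouse was far above its companions in WT without a tumour and in KO with a tumour, and each pair of groups overlapped. The group means were 874 ± 1069, 2146 ± 1393, 1005 ± 681 and 3459.6 ± 3868 (SD, n = 3) in the same order, and no neighbours in rank differed beyond their spread. Without the shallow library, replicate 1, the mean of KO with a tumour was 1259, below that of WT with a tumour. Without replicate 3 the mean of KO without a tumour was 614, below that of WT without a tumour.

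Mt2 (ENSMUSG00000031762, mm39 chromosome 8, 94899292 to 94900196, plus strand) lies upstream of Mt1, with 5513 bases between the genes, and encodes metallothionein 2. Its normalised signal was 119, 664 and 76.7 in WT without a tumour and 2672, 722 and 1602 in WT with a tumour, so that all 3 livers with a tumour lay above all 3 without one. In KO it was 279.7, 780.0 and 1259 without a tumour and 5038, 568 and 2021 with one, and these groups overlapped. The means were 287 ± 328, 1665 ± 977, 773 ± 489.6 and 2542 ± 2279.7 (SD, n = 3), in the order of groups used for Mt1. Without replicate 1 the mean of KO with a tumour was 1295, also below that of WT with a tumour, and without replicate 3 that of KO without a tumour was 529.9.

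In WT, tumour against none gave Mt2 a log2 fold change of 2.99 ± 0.85 (SE), with a 95% interval of 1.17 to 4.81 and a limma adjusted p of 0.18. Mt1 had 1.87 ± 0.89 there, with an interval from -0.04 to 3.79 and a limma adjusted p of 0.595. Leaving out 1 library at a time moved Mt2 between 2.37 and 3.92 and Mt1 between 1.22 and 2.89, in each case lowest without replicate 3 and highest without replicate 2 of WT without a tumour. In KO the values were 1.46 ± 0.85 for Mt2 and 1.26 ± 0.89 for Mt1, and both intervals included 0. Those 2 values rest in part on KO with a tumour replicate 1, the shallow library: without it they were 0.72 for Mt2 and 0.30 for Mt1. Without KO without a tumour replicate 3 they were 1.94 and 1.77, and without both libraries 1.20 and 0.82. Averaged over genotypes, Mt2 reached 2.23 ± 0.60 with an interval of 0.94 to 3.51 and a limma adjusted p of 0.0946, and 1.85 without the shallow library. The test of a difference in the tumour effect between genotypes gave -1.53 ± 1.20 for Mt2 and -0.62 ± 1.27 for Mt1, which is within error. That Mt1 value was -1.57 without the shallow library and -0.10 without KO without a tumour replicate 3.

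Between genotypes without a tumour, the log2 difference of KO from WT was 1.83 ± 0.85 for Mt2, with an interval of 0.01 to 3.64 and a limma adjusted p of 1. Mt1 differed by 0.77 ± 0.89. Leaving out 1 library at a time moved Mt2 between 1.21 and 2.76 and Mt1 between 0.12 and 1.78, lowest without replicate 3 and highest without replicate 2 of WT without a tumour. Without KO without a tumour replicate 3 the values were 1.35 and 0.25. With a tumour the genotypes differed by 0.30 ± 0.85 for Mt2 and 0.15 ± 0.89 for Mt1, and without KO with a tumour replicate 1 these values were -0.44 and -0.81. Without KO with a tumour replicate 2 they were 1.13 and 1.04.

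**Figure D2:**
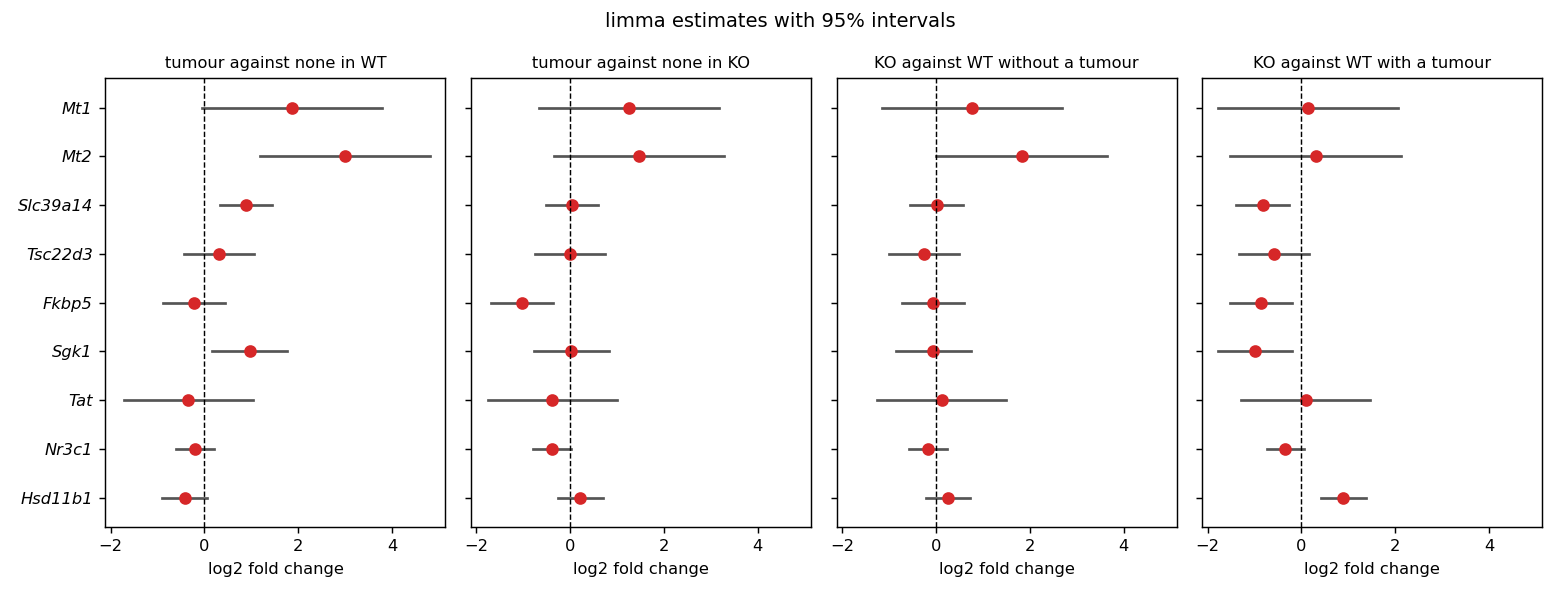
Log2 fold change of each of the 9 genes with its 95% interval (limma, 3 mice per group) in 4 group-by-group comparisons; 0 means no difference. Mt2 for tumour against none in WT (2.99) is the value farthest from 0, and its interval is also among the widest.

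Mt1 and Mt2 moved together from liver to liver. Across the 12 libraries Pearson's r of their log2 values was 0.94, and over deviations from the group means it was 0.96. These 12 points share libraries and size factors, and the value is a description. The transcripts share no run of sequence longer than 20 bases. The quotient of the 2 levels was less variable than either: Mt1 signal divided by Mt2 signal was 2.59, 3.17 and 2.72 in WT without a tumour, a mean of 2.83 ± 0.305 (SD, n = 3). In the other groups it was 1.40, 1.58 and 0.973 in WT with a tumour, 1.93, 0.881 and 1.42 in KO without a tumour and 1.56, 1.06 and 0.948 in KO with a tumour. Every liver of WT without a tumour lay above every liver of the other 3 groups. The log2 ratio differed by -1.12 for tumour against none in WT and by -1.07 for KO against WT without a tumour. An exact two-sided permutation test gave p = 0.1 for each, the smallest p that 3 against 3 allows, and 0.2 after adjustment over 4 comparisons. The other 2 comparisons gave -0.21 and -0.15, each with an exact permutation p of 0.7. This ratio was chosen for a test after the values had been seen.

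**Figure D3:**
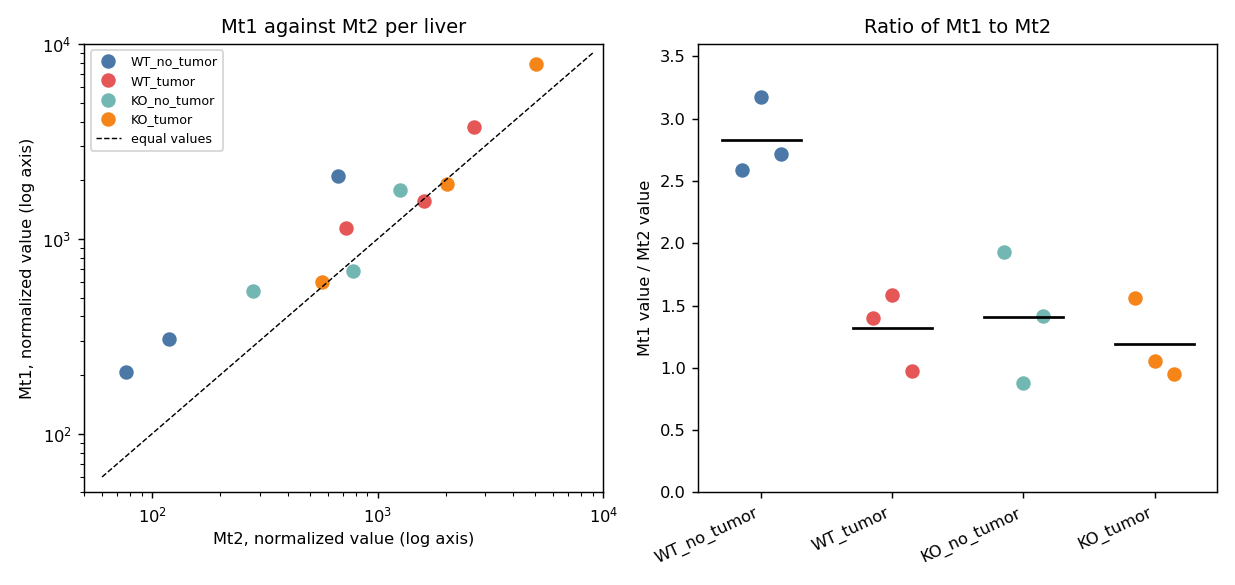
Mt1 against Mt2 normalised signal (both axes log) for the 12 livers by group, with a dashed line at equal values (left), and the Mt1 to Mt2 ratio of each liver with a bar at the group mean (right). The 3 livers of WT without a tumour have ratios of 2.59 to 3.17, and no other liver exceeds 1.93.

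Because the pair moved together, their start regions were read for 2 short motifs. The 250 bases before each RefSeq start (assembly GRCm38.p6, plus strand) are printed below in lower case, with capitals marking each match, on either strand, to the core of the metal response element, TGCACNC or TGCGCNC, the letters that the zinc-sensing factor Mtf1 is known to bind. GRCm38.p6 is an older build than mm39, so these positions are not comparable with those given above.
Mt1, chr8:94178839-94179088: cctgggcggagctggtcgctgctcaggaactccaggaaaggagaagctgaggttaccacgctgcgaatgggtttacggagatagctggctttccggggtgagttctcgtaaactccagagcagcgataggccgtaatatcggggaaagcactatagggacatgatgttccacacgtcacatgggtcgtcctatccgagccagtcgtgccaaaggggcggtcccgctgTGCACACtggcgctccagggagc
Mt2, chr8:94172368-94172617: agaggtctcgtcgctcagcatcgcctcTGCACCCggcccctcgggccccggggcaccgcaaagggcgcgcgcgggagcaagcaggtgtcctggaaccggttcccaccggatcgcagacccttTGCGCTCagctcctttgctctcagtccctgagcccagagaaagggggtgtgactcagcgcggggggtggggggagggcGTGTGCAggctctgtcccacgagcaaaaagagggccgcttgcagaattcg
The Mt1 window held 1 match, 23 to 17 bases before the start, and the Mt2 window held 3, the farthest 223 to 217 bases before it. At least 1 match was found in 21.4% of 32851 windows of the same length, and at least 3 in 1.26%. The letters AGAACA, part of the element that the glucocorticoid receptor binds, were in neither window on either strand, and 16.1% of windows held them. Among the other members with windows, Sgk1 and Tsc22d3, which have several windows each, held these letters in some. Hsd11b1, Fkbp5 and Tat did not. A single Sgk1 window held AGAACA 3 times, and 0.189% of windows held it at least 3 times. Over the 300 bases that also hold the 50 after the start, not printed, Mt1 had 3 matches to the metal response core and Mt2 had 4. The difference between the genes therefore depends on the window. At least 3 matches were found in 1.97% of those longer windows and at least 4 in 0.517%. Such matches describe the letters only and are neither a measure nor a cause of expression.

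Slc39a14 (ENSMUSG00000022094, mm39 chromosome 14, 70540918 to 70588874, minus strand) encodes a zinc importer of the hepatocyte surface that is known to be raised in the acute phase response. Its normalised signal was 7793, 6875 and 5779.7 in WT without a tumour and 15570, 7711 and 16279 in WT with a tumour. In WT with a tumour, 2 of 3 livers lay far above all others and the third, replicate 2, lay just under the highest tumour-free WT liver. In KO it was 6875, 6469 and 7207 without a tumour and 6329.6, 6306 and 8807 with one, and these overlapped. The means were 6816 ± 1008, 13187 ± 4755, 6850.3 ± 369.7 and 7148 ± 1437 (SD, n = 3).

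For tumour against none in WT the log2 fold change of Slc39a14 was 0.89 ± 0.26, with an interval of 0.33 to 1.45 and a limma adjusted p of 0.207. Without WT with a tumour replicate 2 it was 1.23 and passed, with a limma adjusted p of 0.0139. In KO the value was 0.04 ± 0.26, with an interval of -0.51 to 0.60, and 0.12 without the shallow library. The difference between the tumour effects in the 2 genotypes was -0.84 ± 0.37, with an interval of -1.63 to -0.05 and a limma adjusted p of 0.859. Between genotypes with a tumour, KO differed from WT by -0.82 ± 0.26, with an interval of -1.38 to -0.27 and a limma adjusted p of 0.213. Without WT with a tumour replicate 2 that value was -1.17 and passed, with a limma adjusted p of 0.019. Without the shallow KO library it was -0.75. Summed neutrophil markers ran from 394 to 793 in WT with a tumour and from 69.6 to 233 in WT without one, and their part in the Slc39a14 and metallothionein values was not tested.

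The 4 classical glucocorticoid targets each had a different order of group means, mostly within the spread between mice. Tsc22d3 (ENSMUSG00000031431, mm39 chromosome X, 139440277 to 139501408, minus strand) encodes the leucine zipper protein GILZ, a transcriptional regulator that dampens inflammatory signalling. Its normalised signal was 3372, 2827 and 2927 in WT without a tumour, 5990.5, 2216 and 4067 in WT with one, 3439, 2914 and 1618 in KO without one, and 1756, 2979.6 and 3080.3 in KO with one. WT livers with a tumour held both the highest value and one of the lower values, and all groups overlapped. The tumour effect was 0.32 ± 0.35 in WT, with an interval of -0.43 to 1.06, and KO differed from WT by -0.58 ± 0.35 with a tumour, with limma adjusted p-values of 0.916 and 0.434. In WT the tumour effect was -0.01 without WT with a tumour replicate 1 and 0.70 without replicate 2. Between genotypes it was -0.25 and -0.97 without the same livers, and -0.32 without the shallow KO library.

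Fkbp5 (ENSMUSG00000024222, mm39 chromosome 17, 28618068 to 28736501, minus strand) encodes a co-chaperone that binds the receptor's chaperone complex and lowers its affinity for hormone, a feedback brake. Its normalised signal was 2248, 1769 and 1416 in WT without a tumour, 1766, 1018 and 1930.4 in WT with one and 1678, 1339 and 2226 in KO without one. In KO with a tumour it was 646, 715 and 1263, so that all 3 lay under all 3 KO livers without a tumour. The KO means were 1748 ± 447 (tumour-free) and 875 ± 338 (tumour-bearing; SD, n = 3). The log2 fold change in KO was -1.03 ± 0.31, with an interval of -1.69 to -0.37 and a limma adjusted p of 0.324. It was -0.85 without KO with a tumour replicate 1 and -0.84 without KO without a tumour replicate 3. Over all alternatives tried it ran from -1.33 to -0.56 and did not pass in any. In WT it was -0.23 ± 0.31, between -0.41 and 0.05 with 1 library left out, and the difference between the genotypes' tumour effects, -0.80 ± 0.44, was not past the threshold. The Fkbp5 locus overlaps Gm22146 (41.1 to 394) and Gm55779 (0 to 138) on the opposite strand and Gm49838 (13.1 to 142) and Gm49839 (0 to 132) on the same strand, and how their reads were told apart is not given in the sources used here.

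Sgk1 (ENSMUSG00000019970, mm39 chromosome 10, 21758083 to 21875802, plus strand) encodes a kinase that acts on ion channels and transporters. Its normalised signal was 689.8, 589.7 and 424 in WT without a tumour and 1915, 704 and 949 in WT with one, and these groups did not overlap. In KO it was 791, 453 and 433 without a tumour and 382, 678 and 632 with one, and these overlapped. KO livers with a tumour all lay under WT livers with a tumour. For tumour against none in WT the log2 fold change was 0.96 ± 0.37, with an interval of 0.17 to 1.76 and a limma adjusted p of 0.429. Without WT with a tumour replicate 1, the liver at 1915, it was 0.55. Between genotypes with a tumour it was -0.99 ± 0.37, with an interval of -1.78 to -0.19 and a limma adjusted p of 0.266. It was -0.73 without the shallow KO library and -0.58 without WT with a tumour replicate 1. In KO the tumour effect was 0.03 ± 0.37. It was 0.29 without the shallow library and -0.13 without KO without a tumour replicate 3.

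Tat (ENSMUSG00000001670, mm39 chromosome 8, 110717069 to 110726435, plus strand) encodes tyrosine aminotransferase, the hepatocyte enzyme that starts tyrosine breakdown and a textbook glucocorticoid target. The 12 livers gave 8844, 2761 and 4067 in WT without a tumour, 11599, 3316 and 1262 in WT with one, 8443, 3691 and 4159 in KO without one and 6581, 3142 and 2857 in KO with one. In every group replicate 1 held the highest value, well above the other 2 livers, and the group means, between 4194 and 5431, lay within their spread. For Tat the tumour effect was -0.34 ± 0.64 in WT, with an interval of -1.72 to 1.03. It was -1.18 without WT with a tumour replicate 1 and 0.42 without replicate 3, so its sign rested on single livers.

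Nr3c1 (ENSMUSG00000024431, mm39 chromosome 18, 39543598 to 39652474, minus strand) encodes the glucocorticoid receptor, and it was the member with the smallest spread between mice. Signal per liver was 8877, 8985 and 7679 in WT without a tumour, 8077, 6095 and 8115 in WT with one, 8445, 7135 and 7182 in KO without one and 4821, 6227 and 6515 in KO with one. KO livers with a tumour all lay under KO livers without one. The means were 8514 ± 725, 7429 ± 1156, 7587 ± 743 and 5854 ± 907 (SD, n = 3). The log2 fold change in KO was -0.38 ± 0.19, with an interval of -0.78 to 0.02 and a limma adjusted p of 0.404. It was -0.25 without the shallow library and -0.42 without KO without a tumour replicate 3. In WT it was -0.21 ± 0.19, and averaged over genotypes -0.29 ± 0.13, with an interval of -0.58 to -0.01 and a limma adjusted p of 0.313.

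Hsd11b1 (ENSMUSG00000016194, mm39 chromosome 1, 192903942 to 192946383, minus strand) encodes the reductase that regenerates active glucocorticoid in the liver. Its levels were 8618, 11055 and 9659 in WT without a tumour, 5836, 9755 and 6771 in WT with one, 9133, 13377 and 12956 in KO without one and 12504, 14645 and 13505 in KO with one. KO livers with a tumour all lay above WT livers with a tumour. The means were 9777 ± 1223, 7454 ± 2047, 11822 ± 2338 and 13551 ± 1071 (SD, n = 3). Between genotypes with a tumour the log2 difference was 0.89 ± 0.22, with an interval of 0.42 to 1.37 and a limma adjusted p of 0.151. It was 0.95 without the shallow KO library, and 1.10 without WT with a tumour replicate 2, where it passed with a limma adjusted p of 0.0313. Averaged over tumour states KO differed from WT by 0.58 ± 0.16, with a limma adjusted p of 0.352, and by 0.61 without the shallow library. The locus overlaps Lamb3 on the opposite strand, at 21.5 to 143.

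Counted over the members, 2 of 9 had all 3 tumour livers above all 3 tumour-free livers in WT (Mt2 and Sgk1) and 2 of 9 had them below in KO (Nr3c1 and Fkbp5). Over all genes tested, 9.46% lay above and 8.05% below in WT (17.5% in either direction), and 7.34% lay above and 9.48% below in KO (16.8%). Between genotypes with a tumour 1 member lay above without overlap (Hsd11b1) and 1 below (Sgk1), where 8.11% and 9.8% of all genes did (17.9% together). No member was free of overlap between genotypes without a tumour, where 3.56% of genes lay above and 4.37% below (7.93% together). None was free of overlap in either averaged comparison: for the tumour effect 0.748% of genes lay above and 0.909% below (1.66% together), and for genotype 0.15% and 0.265% (0.414% together). The median log2 fold change of the members with a tumour was 0.32 in WT and 0.03 in KO, where all genes had medians of 0.00 and -0.08. Between genotypes with a tumour the medians were -0.34 and -0.12.

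The size of the spread between mice divided the members. The pooled within-group SD of log2 values was 0.19 for Nr3c1, 0.27 for Hsd11b1 and 0.35 for Slc39a14. It was 0.44 for Fkbp5, 0.52 for Tsc22d3 and 0.53 for Sgk1, near the median of 0.42 over 12267 genes with a mean of at least 50. It was 1.02 for Tat, 1.44 for Mt1 and 1.35 for Mt2, in the 88.6th, 93.6th and 92.9th percentile of those genes. The highest library held 37.7 times the lowest for Mt1, 65.7 times for Mt2 and 9.19 times for Tat, but 1.86 times for Nr3c1.

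**Figure D4:**
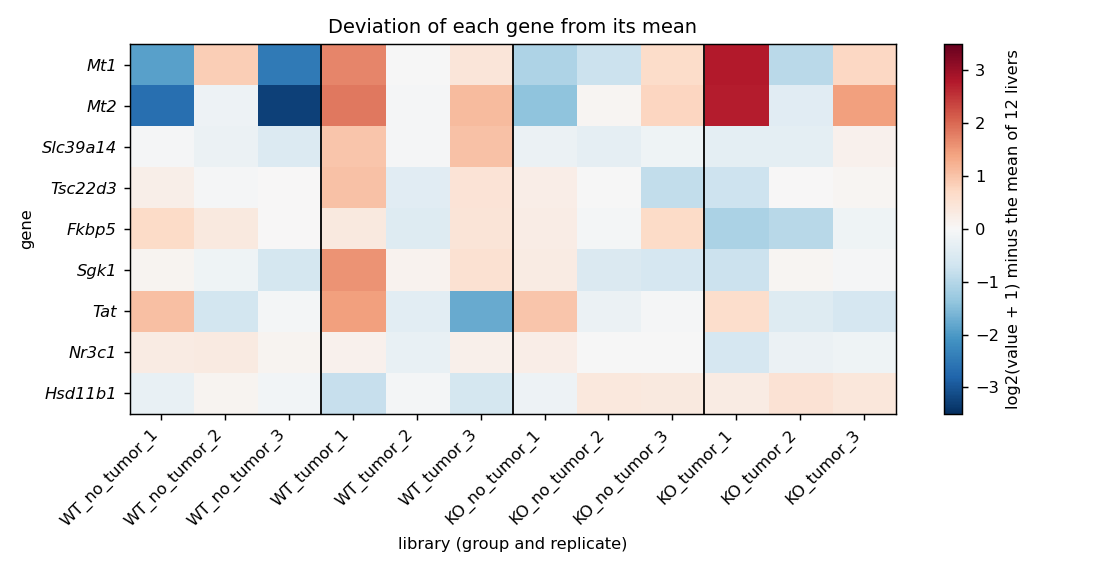
Deviation of each of the 9 genes (rows) from its own mean over all 12 livers in each library (columns, by group), as log2(value + 1) on a colour scale with red above and blue below the mean. Mt1 and Mt2 carry the strongest colours and share their sign in most livers.

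Among the 36 pairs of members, deviations from the group means were most alike, after Mt1 with Mt2, for Fkbp5 with Slc39a14 (r = 0.88), Tsc22d3 with Sgk1 (0.85), Nr3c1 with Sgk1 (0.83) and Nr3c1 with Tsc22d3 (0.80). Hsd11b1 deviated against Sgk1 (-0.66), Tsc22d3 (-0.65) and Slc39a14 (-0.63). Of 11129 other named genes with a mean of at least 50, those with a pattern like that of Slc39a14 over the 12 libraries included the cytokine receptor chain Il13ra1 (r = 0.93) and the complement regulator C4bp (0.91). Nr3c1 was most like Tnrc6b, Fbxo33 and Cggbp1 (0.97 each), and Hsd11b1 most like Etfa (0.91), Lactb (0.90) and Ephx1 (0.90), of which Etfa carries electrons in fatty acid oxidation and Ephx1 is an epoxide hydrolase. Mt1 was most like Mt2 (0.94), then Ifngr2 (0.92) and Vtn (0.91). Mt2, after Mt1, was most like Zkscan6 (0.89) and Apon (0.88). Fkbp5 was most like Cped1 (0.93), Xrn1 (0.92) and Pde4d (0.90), and Tsc22d3 most like Csnk1g3 (0.92), Focad (0.91) and Appl1 (0.87). Sgk1 was most like Gpr182, Focad and Tmem184c (0.87 each), and Tat most like Mrpl37 (0.82), Vps52 (0.82) and Wipi2 (0.81). These correlations share libraries, depth and size factors and are descriptions. Each includes KO with a tumour replicate 1, the shallow library, and none was computed without it. That library held the lowest signal of Nr3c1, Tnrc6b, Fbxo33, Cggbp1, Fkbp5 and Xrn1 and the highest of Mt1 and Mt2.

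Other genes of the same pathways gave few calls with limma. Over all genes tested, the tumour log2 fold change was positive in 50.4% in WT and in 45.7% in KO, which the counts of signs below should be read against. Of 22 further glucocorticoid-responsive genes tested, 14 had a positive and 8 a negative tumour log2 fold change in WT, with a median of 0.20, and none passed. Averaged over genotypes 1 passed: Cebpd, a transcription factor that glucocorticoids and cytokines induce, rose by 2.09 ± 0.45 (limma adjusted p = 0.0434). The livers read 38.4, 41.0 and 76.7 in WT without a tumour and 333, 197 and 158 in WT with one, and 16.1, 45.1 and 15.8 in KO without and 46.8, 129 and 151 in KO with one. Angptl4, a lipase inhibitor, had -1.41 ± 0.39 in WT, Bcl6, a transcriptional repressor, had 1.44 ± 0.45, and Sds, an enzyme of serine breakdown, had 1.57 ± 0.56, with limma adjusted p-values of 0.167, 0.24 and 0.356.

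Of 18 genes that handle the receptor or its steroid ligand, 15 had a negative tumour log2 fold change in WT, with a median of -0.25, and in KO 8 did, with a median of 0.14. None passed in either genotype. Averaged over genotypes Akr1d1, a reductase that inactivates steroid hormones, fell by 0.61 ± 0.12 on the log2 scale (limma adjusted p = 0.0367), from means of 7451 and 8797 without a tumour to 5387 and 5263 with one in WT and KO. Serpina6, the corticosteroid carrier of plasma, had -1.61 ± 0.50 in WT (limma adjusted p = 0.234), and its WT values ran from 2576 to 13356 without a tumour and from 1723 to 2646 with one. Srd5a1, a steroid reductase, had -1.54 ± 0.37 (limma adjusted p = 0.0986). H6pd, which supplies the cofactor that Hsd11b1 uses, had 0.65 ± 0.19 (limma adjusted p = 0.215).

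Zinc transporters gave no call in WT: of 12 importers tested besides Slc39a14, 8 had a positive tumour log2 fold change with a median of 0.12, and Slc39a11 had the smallest p, at 0.95 ± 0.23 (limma adjusted p = 0.0931). Slc39a1 had 0.64 ± 0.21, Slc39a13 had 0.94 ± 0.41 and Slc39a2 had -1.36 ± 1.30, none past the threshold. Of 9 exporters 5 were positive, with a median of 0.02: Slc30a5 had 0.42 ± 0.17 and Slc30a9 had -0.17 ± 0.24, and the low gene Slc30a3 had -0.79 ± 1.49. Slc30a8, also low, had -2.33 with an interval that included 0. Of 15 genes of metal response and copper handling, 6 were positive and 1 passed: Cp, the copper protein ceruloplasmin, rose by 1.25 ± 0.25 in WT (limma adjusted p = 0.038). Signal in the 3 livers of each group was 36888, 36103 and 39891 in WT without a tumour and 83114, 79193 and 108046 with one. Averaged over genotypes Cp rose by 0.83 ± 0.18 (limma adjusted p = 0.0406). Hmox1, which breaks down heme, had 0.81 ± 0.36 in WT, the copper transporter Slc31a2 had -0.95 ± 0.47 and the iron exporter Slc40a1 had -0.43 ± 0.27, with no call. In 5 genes of tyrosine breakdown besides Tat, 2 were positive, with a median of -0.10 and no call. Hpd had -0.43 ± 0.46, Gstz1 had 0.41 ± 0.23 and Fah had 0.19 ± 0.22.

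The cytokine and acute phase list differed from these in its counts. Of 20 genes, 19 had a positive tumour log2 fold change in WT, 14 passed, all of them higher, and the median was 1.90. Steap4, a metal reductase, rose by 1.97 ± 0.22 and Itih3 by 2.43 ± 0.28, each with a limma adjusted p of 0.00157. Socs3, the feedback inhibitor of cytokine signalling, rose by 2.69 ± 0.39 and Apcs, serum amyloid P, by 2.74 ± 0.40. Each of these had a limma adjusted p of 0.00814. The log2 fold changes of the other 10 ran from 0.98 for the receptor chain Il6st and 1.17 for the transcription factor Stat3 to 5.67 for the iron-siderophore carrier Lcn2 and 6.03 for serum amyloid Saa1. Between them lay the fibrinogen chains Fgb (1.40), Fgg (1.41) and Fga (1.56), the acid glycoproteins Orm1 (1.90) and Orm2 (4.65) and the heme carrier Hpx (1.93). Saa1 and Saa2 are near-identical copies whose reads could be split between them, and Saa2 passed only in the averaged tumour comparison, at 3.25. In KO 17 were positive and none passed, with a median of 0.82. The list was chosen with results of these data known and is no independent evidence of its direction.

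Summed markers of some other cells also differed between groups, and their part in the members' values was not tested. Sums of Kupffer cell, T cell and B cell markers overlapped between livers without and with a tumour in both genotypes. In WT these sums were 3994 to 9019 and 7515 to 9579, 90.3 to 186 and 132 to 329, and 218 to 318 and 231 to 1941. Sums of bile duct markers were 1406 to 1690 and 1862 to 2553 in WT, and overlapped in KO (1100 to 1364 and 1295 to 2116). The summed signal of 10 of 10 neutrophil markers ran from 69.6 to 233 in WT without a tumour and from 394 to 793 with one, and in KO from 97.1 to 153 and from 54.2 to 312. For 7 of 7 stellate and fibroblast markers the ranges were 10278 to 12948 and 17854 to 21889 in WT, and 10749 to 12471 and 13729 to 17177 in KO. For 7 of 7 endothelial markers they were 5170 to 7796 and 9028 to 10622 in WT, and 6901 to 8201 and 9691 to 15859.7 in KO. For 6 of 7 erythroid markers in the table they were 2166 to 4253 and 6285 to 10136 in WT, and 2460 to 4306 and 2443 to 11878 in KO, where they overlapped. Of 8 mammary epithelial markers, the summed signal came almost wholly from the keratins Krt18 and Krt8 (means of 2230.3 and 1134 over the 12 libraries), which liver epithelium also expresses. The mean was 40.2 for Krt14, 14.8 for Krt5, 15.4 for Elf5 and 16.5 for Cldn4. Krt14 ran from 36.9 to 46.3 in WT without a tumour and from 40.3 to 55.3 with one. The summed ranges were 2180 to 2919 and 4296 to 5483 in WT, and 2386 to 2773 and 2657 to 5802 in KO. Albumin and the other hepatocyte markers, 7 of 8 in the table, were abundant in every library, and no marker of these lists was at 0 in all 12 libraries.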

How the data were processed

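Total RNA of 12 snap-frozen, powdered livers was depleted of ribosomal RNA before sequencing, per the labels' protocols. The authors deposited a table of signal (read numbers scaled by each library's size factor, on a linear scale), and STAR 2.7.8a, Partek, DESeq2 and mm39 are named in the submitters' processing notes. How reads were counted, and with which strand setting, is not given in the sources used here. Between 78.0% and 84.9% of low values were whole reads within 0.01, so no count model was used.

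The 17380 genes that reached a value of 10 in 3 or more libraries were tested on log2(value + 1), a scale that understates changes of low genes, with limma 3.58.1 in R 4.3.3 (eBayes with trend). A single model held all 12 libraries and the 4 group means, with no block. P-values were two-sided and Benjamini-Hochberg adjusted within each of 7 comparisons at 0.05. Ratios, counts and figures used Python 3.11.15 with numpy 2.4.6, pandas 2.3.3, scipy 1.17.1 and matplotlib 3.10.9, and the fit was tested on simulated data. Promoter windows came from RefSeq (GRCm38.p6) and matched 7 of 9 members. Windows of chromosome 18, where Nr3c1 lies, were left out, and none was matched for Slc39a14. The named genes were the 9 members, from each pathway list the genes past the threshold and the 4 with the smallest p for tumour against none in WT, and for each member the 3 most correlated genes. A few genes that this rule names are not reported here. The members and lists were chosen with earlier results of these data known. Alternatives tried were a pseudocount of 10, no filter, other scalings, library weights, a robust fit, a replicate block, each comparison alone and leaving out each library.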

Additional observations from a re-analysis of the deposited data

How the results depend on the processing

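The fit with library weights called members where the unweighted limma fit called 0. For tumour against none it called 4 in WT (Mt2 3.86, Mt1 2.81, Sgk1 1.41 and Slc39a14 1.10) and 3 averaged (Mt2 2.62, Mt1 1.90 and Slc39a14 0.68). For KO against WT it called 3 with a tumour (Hsd11b1 1.07, Sgk1 -1.15 and Slc39a14 -0.80) and 1 averaged (Hsd11b1 0.68). Its weight for KO with a tumour replicate 1 was 0.142. The largest weights were 3.79 for KO with a tumour replicate 3, 2.64 for WT with a tumour replicate 1 and 1.66 for WT without a tumour replicate 3. Among WT livers, WT with a tumour replicate 1 held the highest Mt1, Mt2 and Sgk1. WT without a tumour replicate 3 held the lowest of each. Leaving out 1 library at a time gave 0 to 1 members for tumour against none in WT (1 without WT with a tumour replicate 2) and 0 to 1 averaged (1 without KO with a tumour replicate 2, Mt2 at 2.64). It gave 0 to 2 for KO against WT with a tumour (2 without WT with a tumour replicate 2). The cause was not tested. Every other setting called 0 members in each comparison, including the replicate block. Libraries with the same replicate number in the sample titles had deviations with a mean correlation of 0.0169 over 18 pairs, with 4 over 0.1. The numbers were not taken to pair mice. The deposited column names number KO without a tumour replicates 2 and 3 differently, so neither the block nor this mean tests that numbering. By those names, KO without a tumour replicate 2 shares a number with replicate 3 of the other groups. Those correlations were 0.26 (WT without a tumour), -0.06 (WT with one) and -0.01 (KO with one). Of 1296 alternative values of the members, 15 passed the threshold where the reported value did not, 66 changed sign and none of those had been called. Alternatives also made some effects smaller. For tumour against none in KO, Fkbp5 ran from -1.33 to -0.56 (reported -1.03) and Nr3c1 from -0.47 to -0.17 (reported -0.38). Over all genes, library weights called 510 for tumour against none in WT instead of 118, 856 instead of 185 averaged, 14 instead of 0 in KO, 1664 instead of 4 for KO against WT with a tumour and 139 instead of 2 for KO against WT averaged. Leaving out 1 library moved these counts to between 12 (without WT with a tumour replicate 3) and 205 (without KO with a tumour replicate 1), 47 (without KO without a tumour replicate 1) and 361 (without KO with a tumour replicate 2), 0 and 1, 2 and 210, and 2 and 15, in the same order, the last 3 highest without WT with a tumour replicate 2. For KO against WT with a tumour a pseudocount of 10 called 17, no filter 16, the replicate block 13, quantile scaling 11, a robust fit 9 and the groups fitted alone 0. Quantile scaling moved the median of all genes there from -0.12 to 0.00. With 3 mice a group and large spread, Mt1, Mt2 and Tat have the widest intervals.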
